A study of Homo sapiens with 4 samples.

Results

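The 9 genes described here encode the Akt kinases AKT1 and AKT2, the kinase PDPK1 that activates them, the phosphatases PHLPP1 and PHLPP2 that switch them off, and 4 proteins through which the kinase mTOR reaches the translation machinery, EIF4EBP1, EIF4EBP2, EIF4E and RPS6KB1. They were taken by gene symbol from a deposited table of 61806 genes, all 9 were found once, and all 9 passed the filter on low counts that left 14717 genes for testing. RNA was sequenced from JJ012, an established human chondrosarcoma line, in 4 libraries: 2 of untreated cells and 2 of cells given 10 µM Antcin K, a triterpenoid of the fungus Antrodia cinnamomea, for 24 h. Both groups carried the genotype label WT, and the labels name no vehicle for the untreated cells. The labels do not state whether each group's samples were grown as separate cultures. If they were not, the p-values rest on technical spread alone. JJ012 is 1 line, and no other chondrosarcoma was measured here.

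Receptors on the cell surface activate PI3K, whose lipid product brings Akt and PDPK1 together at the membrane, where PDPK1 phosphorylates the activation loop of Akt. PHLPP phosphatases remove the phosphate from the hydrophobic motif of Akt and so lower its activity. Downstream, the mTOR complex that senses growth signals phosphorylates 4E-BP proteins, which then release the cap-binding factor eIF4E for translation, and it activates the S6 kinase made from RPS6KB1. The series title places PI3K, Akt and mTOR signalling between Antcin K and cell motility. That regulation runs largely through phosphorylation, which these libraries do not measure. They measure transcripts only.

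The promoters of EIF4E and of EIF4EBP2 are shown because they are the regulatory sequences of the cap-binding factor and of one repressor that binds it. They come from RefSeq on GRCh38.p14 and run from 250 bases before the transcription start to 50 bases after it. In EIF4E (chr4:98929084-98929383, minus strand) the capitals mark CACGTG, the E-box bound by MYC and related factors. In EIF4EBP2 (chr10:70403895-70404194, plus strand) they mark GGGCGG, the GC box bound by SP1, here read from the opposite strand.
EIF4E: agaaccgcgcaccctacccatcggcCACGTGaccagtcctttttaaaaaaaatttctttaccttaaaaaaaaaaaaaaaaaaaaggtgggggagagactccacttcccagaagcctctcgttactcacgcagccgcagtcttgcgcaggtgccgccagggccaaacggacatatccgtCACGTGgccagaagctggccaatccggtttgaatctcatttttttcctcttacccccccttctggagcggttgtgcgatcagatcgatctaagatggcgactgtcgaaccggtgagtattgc
EIF4EBP2: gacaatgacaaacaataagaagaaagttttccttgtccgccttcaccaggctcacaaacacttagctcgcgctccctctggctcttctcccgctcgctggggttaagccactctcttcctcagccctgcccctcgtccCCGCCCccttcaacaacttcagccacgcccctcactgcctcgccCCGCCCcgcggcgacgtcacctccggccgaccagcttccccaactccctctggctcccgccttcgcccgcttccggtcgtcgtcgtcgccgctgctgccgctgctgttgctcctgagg
Read on both strands, with overlapping matches counted, the EIF4E window held CACGTG 2 times, starting 225 and 72 bases before the transcription start. Of 35116 promoter windows of the same length, 7.26% held CACGTG and 0.66% held it 2 or more times. The 10 windows read for members of the set came from 8 genes, and none was read for EIF4EBP1. Among these windows, that of EIF4E was the only one with CACGTG. The GC box GGGCGG was in 7 of these 10 windows and in 44.95% of all windows, and the EIF4EBP2 window held it 2 times. A match in letters describes the window and not binding in these cells.

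Untreated replicate 1 held 26270686 counted fragments and replicate 2 held 18757254, and with Antcin K these were 20690078 and 16911257. Mitochondrially encoded genes took 12.9% to 26.0% of a library, most in untreated replicate 1. Log2 levels correlated less between the untreated libraries (Pearson r = 0.963 across 14717 genes, which are not independent replicates) than between the Antcin K libraries (r = 0.984). Of 12 cartilage markers only SOX9 reached 1 FPKM in every library, and COL2A1 had no counts in any, while 5 of 7 markers of mesenchymal lines did (VIM, CD44, ENG, S100A4 and SPARC). None of 8 leukocyte, 6 endothelial or 6 epithelial markers reached 1 FPKM in every library. Their summed levels lay between 1.10 and 3.02 FPKM per library and list.

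Levels differed widely among the 9 genes. FPKM, the fragment count per kilobase of exonic length and per 1000000 counted fragments as the authors deposited it, is the scale on which genes can be compared. EIF4EBP1, which encodes the repressor protein 4E-BP1, was the most abundant in every library, at 325.24 and 358.83 FPKM untreated and 236.28 and 223.96 FPKM after Antcin K. AKT1 stood at 20.25 to 25.52 FPKM, EIF4EBP2 at 14.14 to 23.19 FPKM and AKT2 at 8.54 to 10.86 FPKM over the 4 libraries. AKT1 lay above EIF4EBP2 in both untreated libraries, and they overlapped after Antcin K. EIF4E, the gene of the cap-binding factor, ranged from 1.70 to 2.52 FPKM and PDPK1 from 1.35 to 2.37 FPKM, so these neighbours overlapped. PHLPP1 (0.24 to 0.74 FPKM), PHLPP2 (0.29 to 0.69 FPKM) and RPS6KB1 (0.35 to 0.57 FPKM) were the lowest and overlapped one another. The order rests on the exonic lengths in the deposited table, which run from 880 bases for EIF4EBP1 to 15902 bases for AKT2 and merge all transcripts of a gene.

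**Figure D1:**
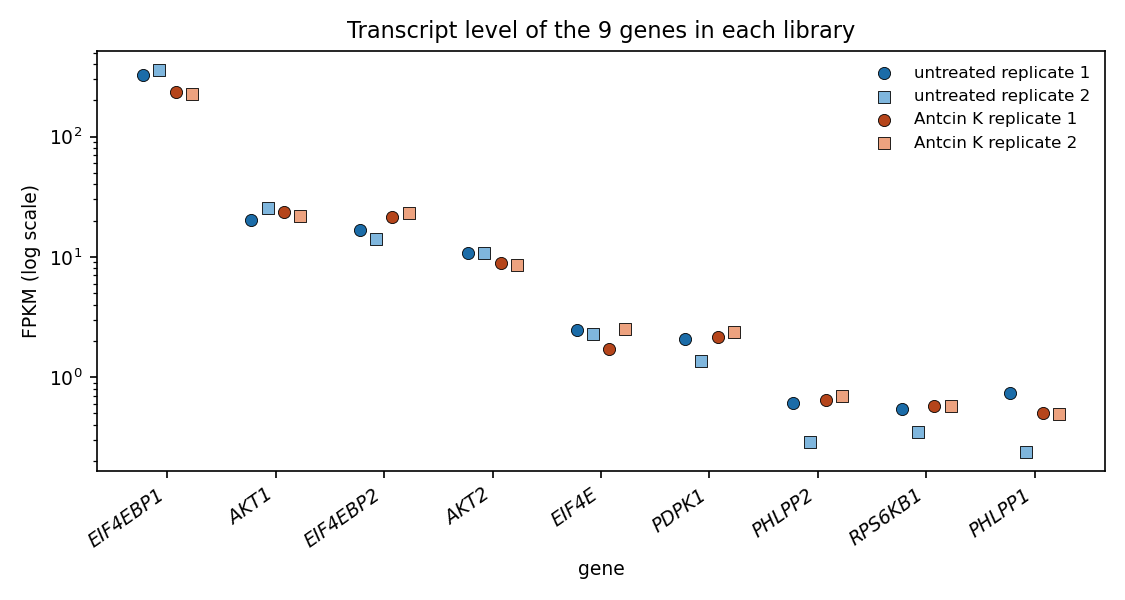
Transcript level of each gene (FPKM, log axis) in the 4 libraries, ordered by mean level; circles are replicate 1 and squares replicate 2, blue untreated and orange Antcin K. EIF4EBP1 stands apart, from 223.96 to 358.83 FPKM, and untreated replicate 2 is the lowest point for PDPK1, PHLPP1, PHLPP2, EIF4EBP2 and RPS6KB1.

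Close relatives of these genes, chosen for mention after their values were seen, gave other levels. RPS6KB2, the second S6 kinase gene, had 17.57 to 27.92 FPKM, far above RPS6KB1. EIF4E2, which encodes a cap-binding relative of eIF4E, had 14.20 to 27.41 FPKM, also above EIF4E in every library. EIF4EBP3, the remaining 4E-BP gene, had 0 to 3 counts per library.

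No gene among the 9 passed the test between groups. In bulk RNA, fewer cells of a kind and less RNA per cell cannot be told apart. edgeR's quasi-likelihood test called 0 of 9 at a Benjamini-Hochberg adjusted p under 0.05, against 0% of the 14717 genes tested, of which 1821 had an unadjusted p under 0.05. Among the 9, EIF4EBP1 alone had an unadjusted p below that level. DESeq2 also called 0 of the 9, and 0.514% of the genes to which it gave an adjusted p. A fit blocked on replicate number and one without the count filter each called 0 of the 9 as well, against 0.177% and 0.723% of all genes. With the block numbers crossed, a fit added after the data were seen, it was 0 of the 9 and 9.72%. Leaving out untreated replicate 1 gave calls for 3 of the 9 (PHLPP2, EIF4EBP1 and EIF4EBP2) and 9.38% of genes, and leaving out untreated replicate 2 gave 1 of the 9 (EIF4EBP1) and 25.2%. Without Antcin K replicate 1 or 2 it was 0 of the 9, against 0.0519% and 0.019%. The median log2 fold change of the 9 was -0.04 and that of all tested genes -0.05, and the medians of the absolute values were 0.36 and 0.34. In 6 of the 9 genes the 2 groups did not overlap (4 with both Antcin K libraries higher, 2 with both lower), and the same held for 45.8% of all tested genes (22.6% higher and 23.3% lower). For 3 of these 6, PDPK1, PHLPP2 and RPS6KB1, the nearest libraries of the groups were only 0.656%, 2.66% and 0.694% apart. AKT2, EIF4EBP1 and EIF4EBP2 had gaps of 22.8%, 42.0% and 24.5%. With a minimum count of 50 these last 3 were the genes without overlap, and with the GC trend removed there were 4, these and RPS6KB1. The share of all genes without overlap was not computed under either setting.

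**Figure D2:**
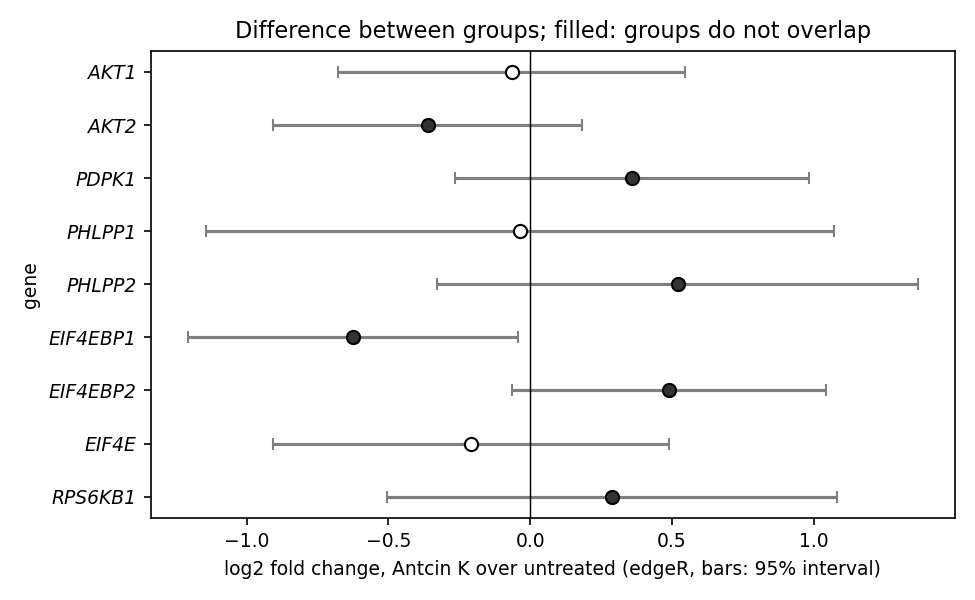
Log2 fold change of each gene, Antcin K over untreated, with its 95% interval from edgeR (2 libraries per group); filled points are genes whose groups do not overlap. The interval of EIF4EBP1 runs from -1.21 to -0.04 and the intervals of the other 8 genes include 0.

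The 4E-BP genes had the lowest p-values of the set and lay on opposite sides of 0. EIF4EBP1 (ENSG00000187840, chromosome 8, 38030534 to 38060365, plus strand, hg38) had counts of 7519 and 5923 in the untreated pair and of 4302 and 3333 in the Antcin K pair. Scaled to the TMM library size and given as counts per 1000000 (CPM), these were 283 and 332 untreated and 199.3 and 199.2 after Antcin K. Both Antcin K libraries lay below both untreated ones. The means were 307 ± 34.4 and 199 ± 0.0740 CPM (SD, n = 2 per group), or -0.63 ± 0.26 (SE) on the log2 scale (edgeR, adjusted p = 0.388, rank 1447 of 14717 by p). 4E-BP1 holds eIF4E back from the cap until mTOR phosphorylates it.

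EIF4EBP2 (ENSG00000148730, chromosome 10, 70404145 to 70428618, plus strand, hg38), whose product binds eIF4E in the same way, had counts of 3270 and 1987 in the untreated pair and of 3308 and 2938 in the Antcin K pair. Scaled, the untreated libraries gave 123 and 111 CPM and the treated ones 153 and 176 CPM. Both Antcin K libraries lay above both untreated ones. On the log2 scale the difference was 0.49 ± 0.24 (SE), its 95% interval was -0.07 to 1.04 and its adjusted p 0.443 (edgeR).

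The ratio of EIF4EBP1 to EIF4EBP2 joins both differences and does not depend on how libraries are scaled. Per length (FPKM), it was 19.6 and 25.4 without treatment, against 11.1 and 9.66 with Antcin K. The groups did not overlap, and the mean log2 ratio was 1.11 lower after Antcin K, or 2.16-fold, with a pooled SD of 0.21 between replicates. The two-sided exact permutation test over the 4 libraries gave p = 0.333, the smallest value this design allows. EIF4EBP1 was the more abundant per length in every library. Removing the trend of expression with transcript GC content, an alternative added after the data were seen, left the difference at -0.89. EIF4EBP1 transcripts have 62.0% GC and EIF4EBP2 transcripts 43.7%.

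**Figure D3:**
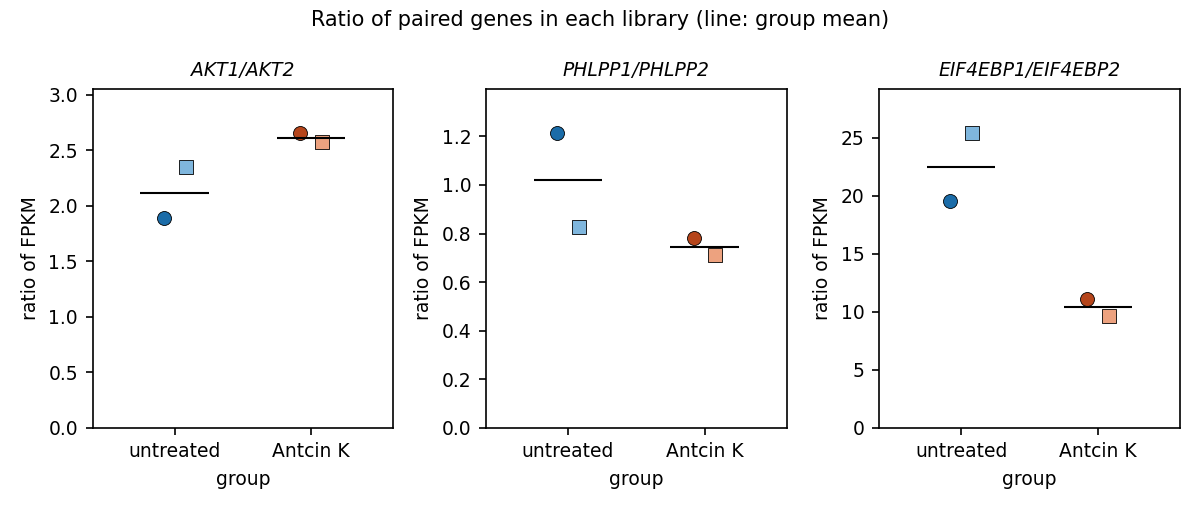
Ratio of FPKM between paired genes in each library, with a line at the group mean (axes start at 0; 2 libraries per group). EIF4EBP1/EIF4EBP2 is 19.6 and 25.4 untreated and 11.1 and 9.66 after Antcin K, without overlap.

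EIF4E (ENSG00000151247, chromosome 4, 98879276 to 98929133, minus strand, hg38) had counts of 323 and 211 in the untreated pair and of 175 and 212 in the Antcin K pair. This was 12.2 and 11.8 CPM without treatment and 8.11 and 12.7 CPM with it. The groups overlapped, since Antcin K replicate 2 was the highest of the 4 and replicate 1 the lowest. edgeR gave -0.21 on the log2 scale (SE 0.30, adjusted p = 0.799), and it was 0.11 without Antcin K replicate 1 and -0.52 without Antcin K replicate 2. The gap between the Antcin K libraries exceeded counting error, with a ratio of 0.640 for replicate 1 over replicate 2 (95% exact binomial interval 0.521 to 0.785, counting error only). The pseudogene EIF4EP2 held 148 counts over the 4 libraries against 921 for EIF4E, so reads could be divided between the copies. Both 4E-BP genes summed were 138 and 165 times EIF4E per length untreated and 152 and 98.1 times after Antcin K. These overlapped (exact permutation p = 0.667, smallest possible 0.333).

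RPS6KB1, the gene of the S6 kinase that phosphorylates ribosomal protein S6 (ENSG00000108443, chromosome 17, 59893046 to 59950574, plus strand, hg38), had counts of 110 and 51 in the untreated pair and of 90 and 74 in the Antcin K pair. Scaled, the untreated libraries gave 4.14 and 2.86 CPM and the treated ones 4.17 and 4.42 CPM. Untreated replicate 1 was nearly level with the Antcin K libraries and replicate 2 stood below them. On the log2 scale the difference was 0.29 ± 0.35 (SE; edgeR, adjusted p = 0.753), and it was 0.06 without untreated replicate 2 and 0.59 without untreated replicate 1. A pseudogene of RPS6KB1 (ENSG00000226521) held 26 counts against 325.

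The Akt genes differed in pattern. AKT1 (ENSG00000142208, chromosome 14, 104769349 to 104795751, minus strand, hg38), the most widely expressed Akt isoform, had counts of 5827 and 5244 in the untreated pair and of 5330 and 4068 in the Antcin K pair. This was 219 and 294 CPM without treatment and 247 and 243 CPM with it. The Antcin K libraries lay between the untreated ones, so the groups overlapped. edgeR gave -0.07 on the log2 scale (standard error 0.27, 95% interval -0.68 to 0.55, adjusted p = 0.937), and its sign turned with untreated replicate 2 left out (0.17) and with the GC trend taken out (0.14). Changes of either sign within that interval are compatible with these values, and the interval is not a limit of detection.

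AKT2 (ENSG00000105221, chromosome 19, 40230317 to 40285536, minus strand, hg38), the isoform best known from insulin-stimulated glucose uptake, had counts of 4478 and 3238 in the untreated pair and of 2916 and 2296 in the Antcin K pair. Scaled, the untreated libraries gave 169 and 181 CPM and the treated ones 135 and 137 CPM. Both Antcin K libraries lay below both untreated ones. On the log2 scale the difference was -0.36 ± 0.24 (SE), its 95% interval was -0.91 to 0.18 and its adjusted p 0.544 (edgeR). Per length, AKT1 was 1.89 and 2.35 times AKT2 in untreated cells and 2.65 and 2.57 times after Antcin K, without overlap (log2 difference 0.31, pooled SD 0.16, exact permutation p = 0.333, the smallest possible). Without untreated replicate 1 that difference was 0.15, and with the GC trend removed 0.43.

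PDPK1, the gene of the kinase PDK1 that phosphorylates the activation loops of Akt and S6 kinase (ENSG00000140992, chromosome 16, 2537979 to 2603188, plus strand, hg38), had counts of 593 and 277 in the untreated pair and of 485 and 438 in the Antcin K pair. This was 22.3 and 15.5 CPM without treatment and 22.5 and 26.2 CPM with it. Untreated replicate 1 matched Antcin K replicate 1 within 1 CPM, and untreated replicate 2 was lower. edgeR gave 0.36 on the log2 scale (SE 0.27, adjusted p = 0.599), or 0.13 without untreated replicate 2 and 0.65 without untreated replicate 1. Its copy PDPK2P held 30 counts against 1793, and 23.67% of its exonic bases in GENCODE 29 lie opposite exons of antisense genes. The strand setting of the counting is not given in the sources used here.

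The phosphatase genes had low counts, and their untreated libraries lay far apart. PHLPP1 (ENSG00000081913, chromosome 18, 62715541 to 62980433, plus strand, hg38) had counts of 177 and 40 in the untreated pair and of 93 and 75 in the Antcin K pair. Scaled, the untreated libraries gave 6.66 and 2.24 CPM and the treated ones 4.31 and 4.48 CPM. The untreated libraries were the highest and the lowest of the 4, and their ratio of 2.97 (95% exact binomial interval 2.10 to 4.30) exceeded counting error. On the log2 scale the difference was -0.04 ± 0.48 (SE; edgeR, adjusted p = 0.981). It was 0.97 without untreated replicate 1 and -0.59 without untreated replicate 2, so the direction rests on the choice between these libraries.

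PHLPP2 (ENSG00000040199, chromosome 16, 71637835 to 71724701, minus strand, hg38) had counts of 199 and 69 in the untreated pair and of 166 and 146 in the Antcin K pair. This was 7.49 and 3.86 CPM without treatment and 7.69 and 8.72 CPM with it. Untreated replicate 2 was again the low library. edgeR gave 0.52 on the log2 scale (SE 0.37, adjusted p = 0.574), or 0.14 without untreated replicate 2 and 1.09 without untreated replicate 1. PHLPP1 was 1.21 and 0.828 times PHLPP2 per length untreated and 0.781 and 0.710 times after Antcin K (log2 difference -0.43, pooled SD 0.28, exact permutation p = 0.333, the smallest possible). That difference was -0.15 without untreated replicate 1 and -0.70 without untreated replicate 2. The gene MARVELD3 overlaps PHLPP2 on the opposite strand and held 87 counts against 580.

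Replicates of a group differed by more than counting error in 8 of the 9 genes for the untreated pair, all but EIF4E, and in 3 of 9 for the Antcin K pair (PDPK1, EIF4EBP2 and EIF4E). By the same exact binomial interval, the untreated pair differed in 61.5% of all tested genes and the treated pair in 37.6%. Untreated replicate 2 was the lowest library for 5 of the 9 genes (PDPK1, PHLPP1, PHLPP2, EIF4EBP2 and RPS6KB1) and for 22.2% of all tested genes. The gap between the untreated libraries also differed with transcript GC content. The 3 genes above 58% GC (AKT1, AKT2 and EIF4EBP1) were higher in untreated replicate 2 than in replicate 1, by 0.11 to 0.42 on the log2 scale, and the other 6, at 42.0% to 55.7% GC, were lower there. Over the tested genes with a GC value, split into 5 equal bins from the lowest GC content to the highest, the median of that gap was -0.31, -0.05, 0.11, 0.26 and 0.10. It did not climb steadily, and PDPK1, at -0.52, lay in the bin whose median, 0.26, was the highest. The median log2 fold change, Antcin K over untreated, was -0.23, 0.06, 0.19, 0.02 and -0.30 in the same bins. AKT1 (-0.07), AKT2 (-0.36) and EIF4EBP1 (-0.63) lay in the bin at -0.30, and PDPK1 (0.36) in that at 0.02. EIF4EBP2 (0.49), PHLPP1 (-0.04) and PHLPP2 (0.52) lay in the bin at 0.06. EIF4E (-0.21) and RPS6KB1 (0.29) lay in the bin at -0.23. The cause of these bin differences was not tested. With the GC trend removed, EIF4EBP1 had a log2 fold change of -0.39, EIF4EBP2 0.50 and AKT2 -0.29, each with non-overlapping groups, and 0 of the 9 passed (limma, adjusted p from 0.499 to 0.994).

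**Figure D4:**
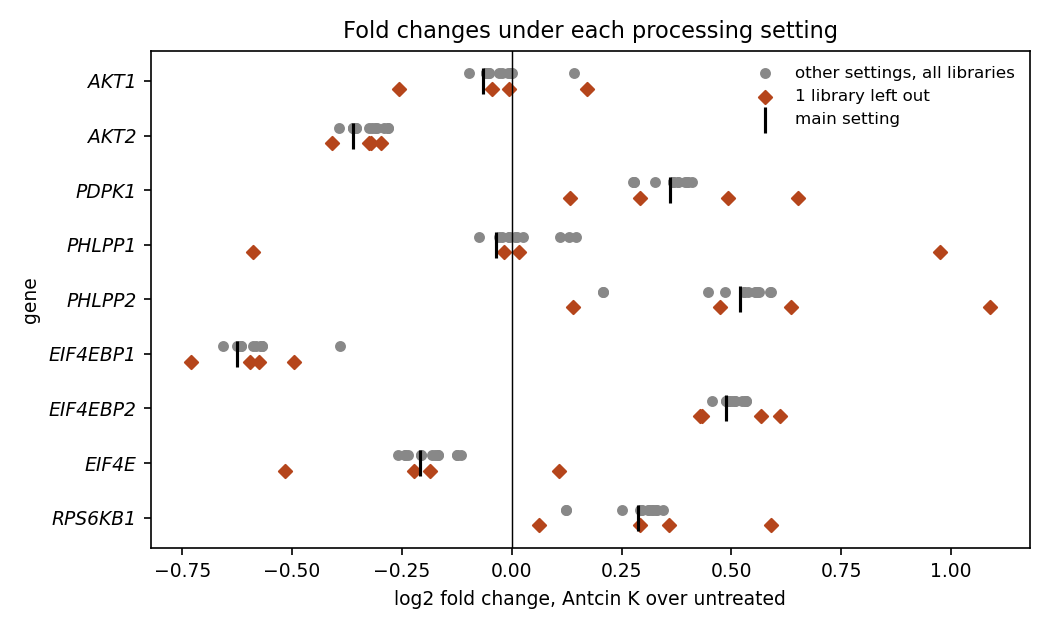
Log2 fold change of each gene under the main setting (bar), the other settings with all libraries (grey) and with 1 library left out (orange). AKT2, PDPK1, PHLPP2, EIF4EBP1, EIF4EBP2 and RPS6KB1 lie on 1 side of 0 in every setting shown, while PHLPP1 runs from -0.59 to 0.97.

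Patterns over the 4 libraries were compared by the distance between log2 CPM profiles centred on their means. Within the set, PDPK1 and RPS6KB1 were nearest (0.12), followed by AKT2 and EIF4EBP1 (0.27), and PHLPP1 and EIF4EBP1 were farthest (1.48). Among 7634 named genes of sufficient level, the 3 nearest to AKT1 were TIMM22, STARD3 and STK32C, at distances of 0.02 to 0.03, and 457 genes lay within 0.2. The 3 nearest to EIF4EBP1 were HSPB1, the small heat shock protein gene, IER5L and EFEMP2, at distances near 0.04, and 150 genes lay within 0.2. HSPB1 itself had 1391 and 1591 CPM in untreated cells against 942 and 958 CPM in treated ones. With 4 libraries such likeness is common and is given as a description.

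The neighbours of the 9 genes in the pathway were taken as 6 lists. By edgeR 0 genes of any list passed in either direction, and the same held for DESeq2, the replicate block and the fit without the count filter. Groups did not overlap for 28.6% to 43.5% of a list's tested genes, below the 45.8% of all tested genes.

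Among 17 Akt substrates, the mean was higher with Antcin K for 7 and lower for 10 (median log2 fold change -0.04). FOXO4, a forkhead factor that Akt keeps out of the nucleus, had counts of 137 and 127 in the untreated pair and of 248 and 173 in the Antcin K pair (log2 fold change 0.84). CDKN1A, the gene of the cell cycle inhibitor p21, averaged 108 ± 24.4 CPM without and 173 ± 15.9 CPM with Antcin K (0.69). CHUK, an IκB kinase gene, had -0.70 with overlapping groups. Of 14 tested kinases that PDK1 activates, 5 had a higher and 9 a lower mean (median -0.09). RPS6KA3, the gene of the kinase RSK2, had 27.0 ± 3.26 and 17.0 ± 0.653 CPM (-0.67), and PKN3, a protein kinase N gene, had -0.60. PKN3 shares its locus with genes on the opposite strand that hold 3192 counts. Of 23 brakes and scaffolds of Akt, 11 had a higher and 12 a lower mean (median -0.01). TRIB3, a pseudokinase gene whose product binds Akt and which stress induces, averaged 173 ± 39.3 CPM without and 97.5 ± 0.420 CPM with Antcin K (-0.83), its relative TRIB2 had -1.01, and USP12, a deubiquitinase gene, had -0.67. None of these 8 genes passed (edgeR, adjusted p from 0.369 to 0.458). TRIB1, a further relative of TRIB3, had -0.04, and TRIB2 rests on only 35 to 113 counts per library.

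On the translation side, 15 of 24 tested cap-binding and initiation factors had a higher and 9 a lower mean (median 0.09). MKNK2 and MKNK1, the genes of the kinases that phosphorylate eIF4E, stood higher in both Antcin K libraries. Genes that overlap MKNK1 on the same strand hold 337 counts over the 4 libraries. MKNK2 had counts of 657 and 350 in the untreated pair and of 882 and 692 in the Antcin K pair, or 22.2 ± 3.63 and 41.1 ± 0.351 CPM (log2 fold change 0.89, standard error 0.24), and MKNK1 had 0.53. EIF4ENIF1, the gene of the protein 4E-T that binds eIF4E and carries it into the nucleus, had 0.67, and the genes opposite it hold 17311 counts. Of 17 S6 kinase substrates and mTOR effectors, 9 had a higher and 8 a lower mean (median 0.03), with 0.52 for UBTF, a factor of ribosomal RNA transcription, -0.47 for TFEB, the lysosomal transcription factor, and 0.41 for EEF2K, the kinase of elongation factor 2. Of 18 further genes, such as elongation factors, known for transcripts that start with the oligopyrimidine tract through which mTOR controls translation, 6 had a higher and 12 a lower mean (median -0.27). The elongation factor genes EEF1B2 and EEF1A1 had 1.03 and 0.80, and NPM1, the nucleophosmin gene, -0.79. EEF1B2 averaged 146 ± 84.7 CPM without and 298 ± 18.3 CPM with Antcin K, and the untreated NPM1 libraries also spread widely, at 281 ± 129 CPM. These 3 genes have processed pseudogenes, among which reads could be divided. None of these 9 genes passed either (edgeR, adjusted p from 0.366 to 0.565). EEF1D and EEF1G, further elongation factor genes listed with EEF1B2 and EEF1A1, had -0.00026 and 0.19. EEF1G had only 36 to 46 counts per library.

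**Figure D5:**
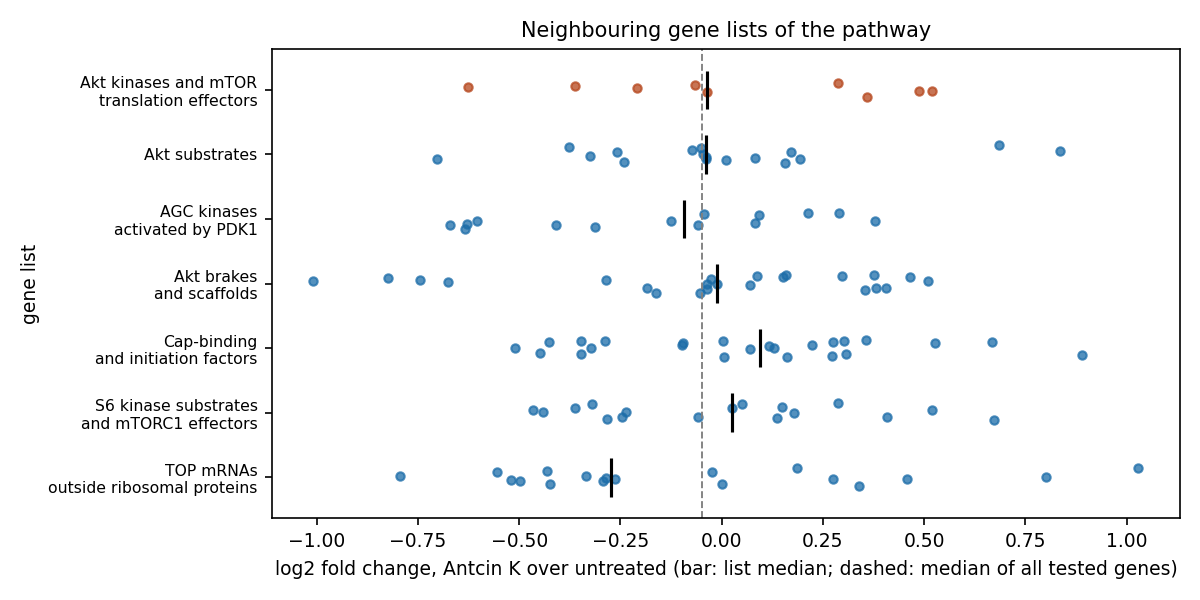
Log2 fold change, Antcin K over untreated, of each tested gene in the 9-gene set (orange) and in 6 lists of pathway neighbours (blue); black bars are list medians and the dashed line is the median of all tested genes, -0.05. List medians lie between -0.27 and 0.09, and genes of every list fall on both sides of 0.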

How the data were processed

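Per the labels' protocols, TRIzol-extracted RNA was read from both ends on an Illumina sequencer. Programs listed, per the submitters' processing notes, are HISAT2 2.2.1, HTSeq 0.6.1 and cutadapt 1.9.1, and the build is hg38. The sources used here do not give the annotation release, the strand setting or the handling of multiply mapped reads. The authors deposited raw counts per Ensembl gene and library. The deposited FPKM values equal counts scaled by exonic length and library total, within 0.005.

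Genes passing filterByExpr of edgeR 4.0.16 (R 4.3.3, minimum count 10) were scaled by TMM and tested by group alone with robust quasi-likelihood fits. The fit covered 14717 genes, and p-values were adjusted over all of them. Log2 fold changes had standard errors with a median of 0.33. Alternatives used DESeq2 1.42.0 and limma 3.58.1 among others. Ratios used deposited FPKM.

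The 9 genes and the lists were chosen with earlier results of these data known. The genes named are the 9, the 3 of each list with the lowest p, and the 3 nearest in pattern to AKT1 and EIF4EBP1. RPS6KB2, EIF4E2, EIF4EBP3, TRIB1, EEF1D and EEF1G were added after their values were seen. One gene that this rule names is not reported here. Promoters came from RefSeq (GRCh38.p14), overlaps and GC content from GENCODE 29. All list symbols were matched in the table, NHERF1 through its gene ID.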

Additional observations from a re-analysis of the deposited data

How the results depend on the processing

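Over 17 alternatives (15 planned, 2 chosen after seeing the data), AKT2, PDPK1, PHLPP2, EIF4EBP1, EIF4EBP2 and RPS6KB1 kept their direction in every one that gave a value. In the main setting these were the genes whose groups did not overlap, so leaving out 1 library could hardly turn their direction. The remaining alternatives refit the same 4 libraries. PHLPP1, at -0.04, turned to 0.00652 without the count filter, 0.11 in limma voom, 0.025 on log2(FPKM + 1) with no filter, 0.15 with the replicate block, 0.13 with the block crossed and 0.013 with the GC trend taken out, and ran from -0.59 to 0.97 when single libraries were left out (0.97 lacking untreated replicate 1, 0.018 lacking Antcin K replicate 1). AKT1 turned to 0.14 with the GC trend taken out and ran from -0.26 to 0.17 over the libraries left out (0.17 lacking untreated replicate 2), and EIF4E from -0.52 to 0.11 (0.11 lacking Antcin K replicate 1). The cause was not tested. With 1 library left out, between 3 and 3971 genes and between 0 and 3 of the 9 were called (edgeR), where the lone library is assumed to vary like the other group. Lacking untreated replicate 1, PHLPP2, EIF4EBP1 and EIF4EBP2 passed (adjusted p = 0.0234, 0.000209 and 0.0146), and lacking untreated replicate 2, EIF4EBP1 passed (0.0153). Those fits took the spread between replicates from the Antcin K pair alone, and the shares called over all genes are given above. Over all genes, edgeR called 0, against 208 without the count filter, 58 with DESeq2 (3424 genes had no adjusted p), 26 with the replicate block and 1430 with the block crossed. Same-numbered libraries deviated in opposite directions (r = -0.32 across genes), so the numbers were not taken as pairs, and the block called 0 of the 9, crossed or not. With a minimum count of 50, 3 of the 9 did not overlap, and AKT2, EIF4EBP1 and EIF4EBP2 are those 3. The share of all genes without overlap was not computed in that setting. The median log2 fold change of all tested genes was -0.05 with TMM and -0.04 with DESeq2 size factors. With CPM in place of FPKM the difference in summed 4E-BP over EIF4E was 0.019 in place of -0.31. Without each library in turn it ran from -0.62 to 0.00389, and that of summed Akt over summed PHLPP, -0.55 in the main setting, from -1.34 to 0.24. The summed Akt over summed PHLPP ratio was 22.9 and 68.6 untreated and 28.4 and 25.8 after Antcin K. Both Antcin K libraries thus lay between the untreated ones, and the groups overlapped. The EIF4EBP1/EIF4EBP2 difference ran from -1.30 to -0.92 without each library, and -0.89 with the GC trend taken out. Counts of 40 to 199 for PHLPP1, PHLPP2 and RPS6KB1 limit their precision.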
